A study of Mus musculus with 35 samples.

Results

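The proprotein convertase genes Pcsk5, Pcsk6, Pcsk7 and Furin, were followed in the skin of mice over the weeks after a single dose of radiation. They are 4 of the 36106 genes in the count table and were found by symbol. Pcsk5 was chosen for its values: among 19338 genes it had the smallest p for a change of the difference between radiated and control skin over the weeks. Because it was chosen by these values, its levels are given as a description, with no test. Pcsk6, Pcsk7 and Furin were taken along as relatives of Pcsk5, and their differences were tested.

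The study followed radiation dermatitis in female C57BL/6J mice that were 10 weeks old. Sham mice (n = 3 samples) received no radiation. The other mice received 25 Gy to the left flank (420 s at 3.6 Gy per min), and the treated skin was then shaved. Radiated skin and skin labelled control were each sampled at weeks 1, 2, 3 and 4 (n = 4 samples per group), so that 35 samples came from 19 mice and every week used other mice. The body site of the control skin is not in the labels, and the shaving is described for treated skin only. Samples held 17362725 to 28487795 counts, and every marker of keratinocytes, hair follicle, fibroblasts, vessels, muscle and macrophages on the lists used here was above 0 in every group. The summed level of 4 skeletal muscle markers ran from 397 to 1107 CPM in radiated skin of week 4 and from 10143 to 21668 CPM in control skin of week 3, so the biopsies held unequal amounts of muscle RNA. In bulk samples such as these, fewer cells of a type and less RNA per cell cannot be told apart.

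Proprotein convertases are serine proteases that cut inactive precursor proteins after basic residues and thereby release growth factors, receptors, adhesion molecules and other proteases in their mature form. Furin works in the trans-Golgi network and at the cell surface and is made in nearly all tissues. PC5, the product of Pcsk5, and PACE4, the product of Pcsk6, can be secreted and held at the cell surface and in the matrix by heparan sulphate proteoglycans, while PC7, the product of Pcsk7, is a membrane protein that cycles between the Golgi and the surface. In epidermis these enzymes are known for processing profilaggrin and cadherins, and in connective tissue for activating membrane-type matrix metalloproteinases and growth factors of the TGF-beta family.

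On GRCm38 in the GENCODE annotation, Pcsk5 (ENSMUSG00000024713) lies on chromosome 19, from 17432319 to 17837632 on the minus strand, and spans 405.3 kb. It has 2 protein-coding transcripts there, of 915 and 1877 codons, which the deposited values, 1 per gene, do not separate. Pcsk6 (ENSMUSG00000030513) lies on chromosome 7 from 65861734 to 66050386 on the plus strand. Furin (ENSMUSG00000030530) lies 14.3 Mb further along the same chromosome, from 80388585 to 80405436 on the minus strand. Pcsk7 (ENSMUSG00000035382) lies on chromosome 9 from 45906497 to 45929726 on the plus strand. Its exons overlap those of 2 genes on the other strand, Rnf214 over 415 bases (8% of the Pcsk7 exon length) and Tagln over 108 bases (2.1%). The strand setting of the counting is not given in the sources used here, so Pcsk7 counts are less certain than the others.

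The sequences before the starts of Pcsk5 and Furin are shown because, of the 4 genes, these had more than 2-fold higher levels in radiated than in control skin in weeks 3 and 4. Each run is the 250 bases 5′ of a start site in RefSeq (GRCm38.p6), read 5′ to 3′ on the gene's strand, with matches to the searched motifs in capitals. Both strands were searched, so a GC box can appear as its reverse complement, CCGCCC.
Pcsk5, chr19:17837633-17837882, minus strand: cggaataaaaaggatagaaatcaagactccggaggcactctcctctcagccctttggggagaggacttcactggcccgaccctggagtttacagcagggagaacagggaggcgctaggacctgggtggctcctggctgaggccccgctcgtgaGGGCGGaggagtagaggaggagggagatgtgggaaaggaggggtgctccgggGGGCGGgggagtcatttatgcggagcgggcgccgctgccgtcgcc
Furin start 1, chr7:80405437-80405686, minus strand: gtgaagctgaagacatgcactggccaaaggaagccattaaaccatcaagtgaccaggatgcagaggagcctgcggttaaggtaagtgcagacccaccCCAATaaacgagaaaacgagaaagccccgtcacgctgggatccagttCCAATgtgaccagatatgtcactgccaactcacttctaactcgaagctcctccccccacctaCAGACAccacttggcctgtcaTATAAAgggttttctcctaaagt
Furin start 2, chr7:80402813-80403062, minus strand: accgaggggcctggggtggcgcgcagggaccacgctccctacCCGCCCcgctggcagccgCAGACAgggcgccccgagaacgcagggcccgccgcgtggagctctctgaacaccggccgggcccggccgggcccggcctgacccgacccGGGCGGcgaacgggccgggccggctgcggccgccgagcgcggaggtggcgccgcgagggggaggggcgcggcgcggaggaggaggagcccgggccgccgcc

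The motifs were AP-1 (TGANTCA), SMAD (CAGACA), the GC box (GGGCGG), the TATA box (TATAAA) and the CCAAT box (CCAAT), and no matches overlapped. The Pcsk5 window held 2 GC boxes, at 97 to 92 and 45 to 40 bases before the start, and 15 CpG dinucleotides at 64% GC. Furin start 1 held a TATA box at 23 to 18 bases before the start, 2 CCAAT boxes and 1 SMAD match, at 50.4% GC. Furin start 2 held 2 GC boxes and 1 SMAD match, at 83.2% GC. The 3 windows held no AP-1 match. Among 32851 mouse windows of this length, with a median of 52.4% GC, 6.75% held the AP-1 letters, 17.1% SMAD, 32.7% the GC box, 12.4% the TATA box and 33.8% CCAAT. These matches describe the letters in these windows only.

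Levels are given as CPM, a gene's counts for every 1000000 counts in the library, after TMM scaling. Pcsk5, which encodes PC5, stood at 20.6, 25.8 and 20.5 CPM in sham samples 1 to 3. In control samples 1 to 4 it stood at 20.4, 16.1, 21.7 and 26.8 CPM at week 1, 22.0, 12.6, 18.8 and 25.0 at week 2, 14.8, 18.6, 14.2 and 26.7 at week 3, and 11.9, 17.2, 14.6 and 17.3 at week 4. In radiated samples 1 to 4 it stood at 24.4, 16.4, 20.4 and 27.0 CPM at week 1, 19.0, 19.8, 23.7 and 26.3 at week 2, 135, 62.5, 127 and 52.3 at week 3, and 247, 208, 165 and 246 at week 4. Radiated and control levels overlapped in weeks 1 and 2 and were apart in weeks 3 and 4, when every radiated sample lay above every control and sham sample. All 4 radiated samples of week 4 also lay above all 4 of week 3, an order that was not counted over all genes.

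Mean Pcsk5 levels of radiated skin were 22.1 ± 4.65 CPM at week 1, 22.2 ± 3.43 at week 2, 94.1 ± 42.7 at week 3 and 216 ± 38.7 at week 4 (SD, n = 4 each). Control skin of the same weeks had means of 21.2 ± 4.44, 19.6 ± 5.30, 18.6 ± 5.78 and 15.2 ± 2.54 CPM, and sham skin 22.3 ± 3.05 CPM (n = 3). In order of level, radiated skin of week 4 came first and radiated skin of week 3 second, and the other 7 groups lay between 15.2 and 22.3 CPM with ranges that overlapped between neighbours. Against control skin, the log2 fold change of Pcsk5 was 0.06 (SE 0.21) in week 1, 0.18 (SE 0.22) in week 2, 2.37 (SE 0.36) in week 3 and 3.83 (SE 0.18, 14.2-fold) in week 4. In week 4, 208 of the 17850 genes tested had a larger increase, and in week 3, 368 of 17653 did. Within the numbered pairs, taken as 2 samples of 1 mouse, the ratio of radiated to control level ran from 1.96 to 9.12 in week 3 and from 11.3 to 20.7 in week 4. The difference between the log2 fold changes of weeks 4 and 1 was 3.80, and with the replicate number as a block, which takes out differences between mice, Pcsk5 was 24th rather than 1st of the 19338 genes by p.

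**Figure D1:**
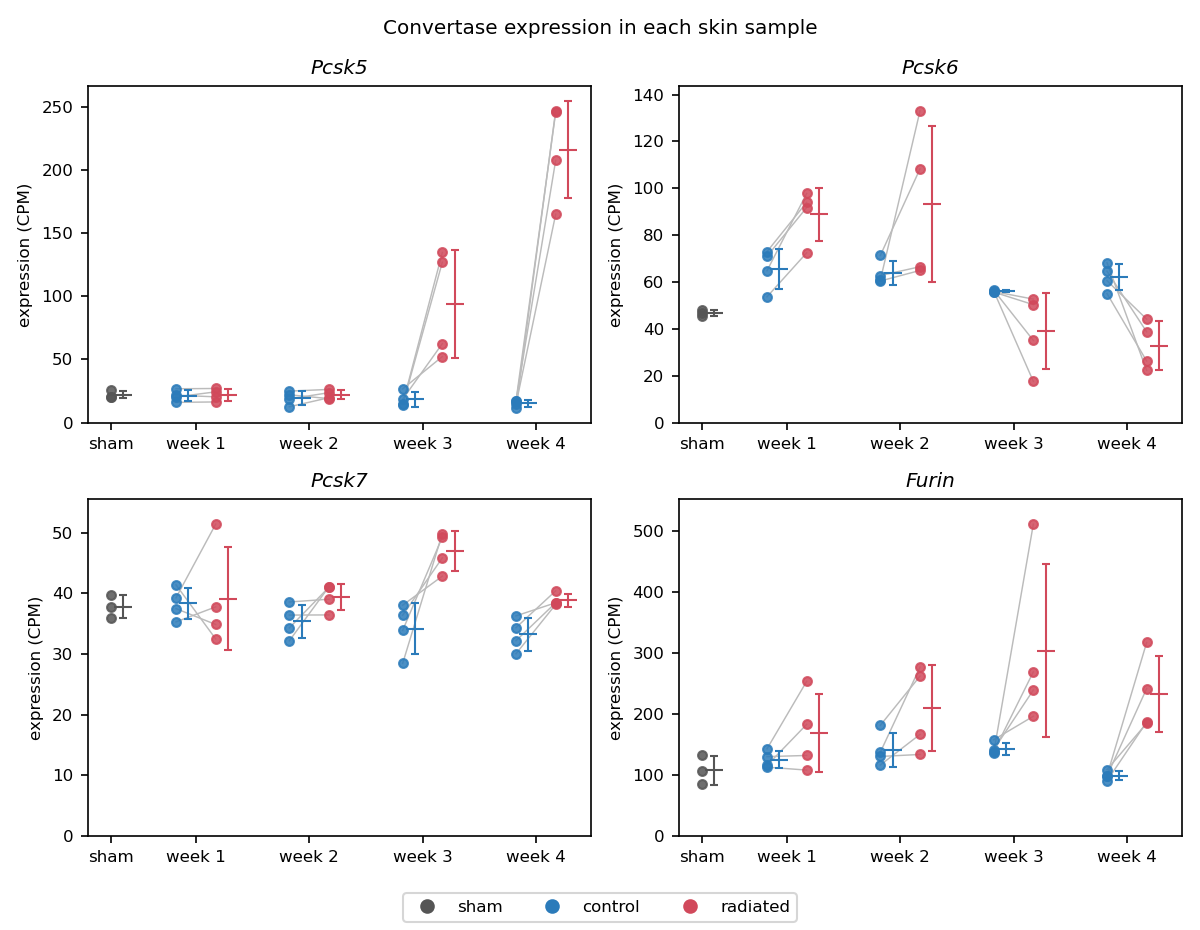
Expression of the 4 convertase genes in each skin sample, in CPM on linear axes that start at 0, by group (sham n = 3, others n = 4). Points are samples, grey lines join the control and radiated samples that share a week and a number, and the bars beside the points give mean ± SD. In weeks 3 and 4 the radiated samples of Pcsk5 and Furin lie above the control samples and those of Pcsk6 lie below them.

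Furin, which encodes the convertase made in nearly all cells, rose in weeks 3 and 4. Its levels in sham samples 1 to 3 were 85.2, 132 and 106 CPM. In control samples 1 to 4 they were 113, 115, 143 and 129.9 CPM at week 1, 130.1, 116, 137 and 181 at week 2, 138, 141, 136 and 157 at week 3, and 109, 90.2, 98.7 and 98.3 at week 4. In radiated samples 1 to 4 they were 108, 183, 253 and 132 CPM at week 1, 133, 166, 276 and 262 at week 2, 269, 239, 511 and 196 at week 3, and 184, 187, 317 and 241 at week 4. Radiated and control samples overlapped in weeks 1 and 2 and did not overlap in weeks 3 and 4. Radiated sample 3 was the highest of its group in every week, but the samples with that number came from different mice.

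The log2 fold change of Furin against control skin was 0.44 (SE 0.24, adjusted p 0.412) in week 1 and 0.57 (SE 0.25, adjusted p 0.352) in week 2, neither past the threshold of 0.05 in edgeR's quasi-likelihood test with Benjamini-Hochberg adjustment over all genes. It was 1.11 (SE 0.27, adjusted p 0.0160) in week 3 and 1.24 (SE 0.17, adjusted p 0.000248, 2.36-fold) in week 4 in the same edgeR test. Without radiated sample 3, at 511 CPM, the value of week 3 was 0.74 and still passed (adjusted p 0.0083 in edgeR). Furin was higher in radiated skin in 4 of 4 pairs in both weeks. The change of this difference over the weeks, tested across the 32 radiated and control libraries, did not pass for Furin (adjusted p 0.256 in edgeR).

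Pcsk6, which encodes PACE4, fell in radiated skin of week 4. Its levels in sham samples 1 to 3 were 48.0, 45.4 and 46.9 CPM. In control samples 1 to 4 they were 53.7, 73.0, 71.0 and 64.8 CPM at week 1, 60.4, 62.8, 71.3 and 60.8 at week 2, 56.2, 55.9, 56.5 and 55.7 at week 3, and 68.3, 64.6, 60.6 and 55.1 at week 4. In radiated samples 1 to 4 they were 72.5, 94.0, 91.8 and 97.8 CPM at week 1, 64.9, 66.5, 108 and 133 at week 2, 17.6, 52.7, 35.1 and 50.3 at week 3, and 22.3, 38.8, 44.2 and 26.3 at week 4. In weeks 1 and 2 every radiated sample lay above the control sample of its own number while the group ranges overlapped. How many of all genes had every pair in the same direction was not counted. In weeks 3 and 4 every radiated sample lay below every control sample.

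The log2 fold change of Pcsk6 against control skin was 0.45 (SE 0.15, adjusted p 0.253) in week 1, 0.54 (SE 0.24, adjusted p 0.348) in week 2 and -0.50 (SE 0.29, adjusted p 0.219) in week 3, none past the threshold in edgeR. In week 4 it was -0.91 (SE 0.20, adjusted p 0.00399 in edgeR), with lower levels in 4 of 4 pairs. The change of the difference over the weeks passed for Pcsk6 (adjusted p 0.00717 in edgeR), as it did for 15.6% of the 19338 genes tested. The log2 fold change of week 4 lay 1.34 below that of week 1.

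Markers of several epithelial cell types differed along with Pcsk6 in week 4, where 24.2% of all genes were lower and 24.2% higher. Of 3 suprabasal keratinocyte markers (Krt1, Krt10 and Lor), Krt10 and Lor were lower in radiated skin of week 4 at an adjusted p under 0.05 in edgeR, and Krt1 did not pass (0.53). All 3 sebaceous gland markers were lower (Mc5r by 1.80, Scd1 by 1.19 and Awat2 by 0.77 on the log2 scale). The basal markers Col17a1 (-1.51) and Krt5 (-0.83) were lower too, while the basal marker Krt14 was higher (2.03). All 4 hair follicle markers were higher, though their summed levels overlapped between radiated and control skin. The summed level of the suprabasal markers was 357 to 3652 CPM against 8627 to 9799 CPM in control skin, with none of the 3 at 0. In radiated samples 1 to 4 it was 90.7, 1646, 2105 and 8697 CPM in week 3 and 2211, 3652, 2520 and 357 CPM in week 4. The orders of the samples matched only in part. In week 3 the lowest sum and the lowest Pcsk6 level (17.6 CPM) were both in sample 1, but sample 4, with the highest sum, had less Pcsk6 (50.3 CPM) than sample 2 (52.7 CPM). In week 4 the lowest sum was in sample 4, and the lowest Pcsk6 level (22.3 CPM) in sample 1. In weeks 1 and 2 none of these markers passed. Their part in the Pcsk6 result was not tested.

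Pcsk7, which encodes the membrane protein PC7, had the narrowest relative range of group means of the 4 genes, from 33.2 CPM in control skin of week 4 to 46.9 CPM in radiated skin of week 3. Its levels were 35.9, 39.7 and 37.8 CPM in sham samples 1 to 3. In control samples 1 to 4 they were 35.3, 39.2, 37.5 and 41.4 CPM at week 1, 34.3, 36.4, 38.6 and 32.2 at week 2, 36.4, 33.9, 38.0 and 28.4 at week 3, and 32.2, 34.3, 36.3 and 30.0 at week 4. In radiated samples 1 to 4 they were 37.7, 51.4, 34.8 and 32.5 CPM at week 1, 41.0, 36.4, 39.0 and 41.1 at week 2, 45.8, 49.3, 42.8 and 49.8 at week 3, and 38.4, 40.4, 38.4 and 38.1 at week 4. Radiated and control samples overlapped in weeks 1 and 2 and did not overlap in weeks 3 and 4.

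In edgeR, Pcsk7 rose by 0.48 on the log2 scale in week 3 (SE 0.14, adjusted p 0.0275) and by 0.23 in week 4 (SE 0.08, adjusted p 0.0416). With the replicate block the values were 0.49 (adjusted p 0.0784 in edgeR) and 0.24 (adjusted p 0.0902 in edgeR), past the threshold in neither week, while 21.1% and 42.7% of all genes passed with the block. The call of week 3 was also lost without radiated sample 2 (0.46) or without control samples 1 (0.51), 2 (0.48) or 4 (0.40). The call of week 4 was lost without radiated samples 1 (0.24), 2 (0.22) or 4 (0.24) or without control samples 1 (0.24), 2 (0.27) or 4 (0.21). In weeks 1 and 2 the log2 fold changes were 0.04 and 0.15 and did not pass, nor did the change over weeks (adjusted p 0.212 in edgeR).

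Of the 3 convertases tested against control skin, 0 passed in weeks 1 and 2, Furin and Pcsk7 passed in week 3, and all 3 passed in week 4. Of all genes tested, 0% passed in week 1 (2477 of them had an unadjusted p under 0.05 in edgeR, and the Wald test of DESeq2 passed 423 or 2.41%), 0.00577% in week 2, 27.2% in week 3 and 48.4% in week 4. With so many genes passing in weeks 3 and 4, a call by itself does not set these 3 apart. Ranges that did not overlap were also common: in week 4 the radiated samples of 21.5% of 19813 genes lay above all control samples and those of 21.2% below. The shares above and below were 13.6% and 15.7% for week 3. They were 3.73% and 2.69% for week 2 and 3.51% and 4.47% for week 1.

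**Figure D2:**
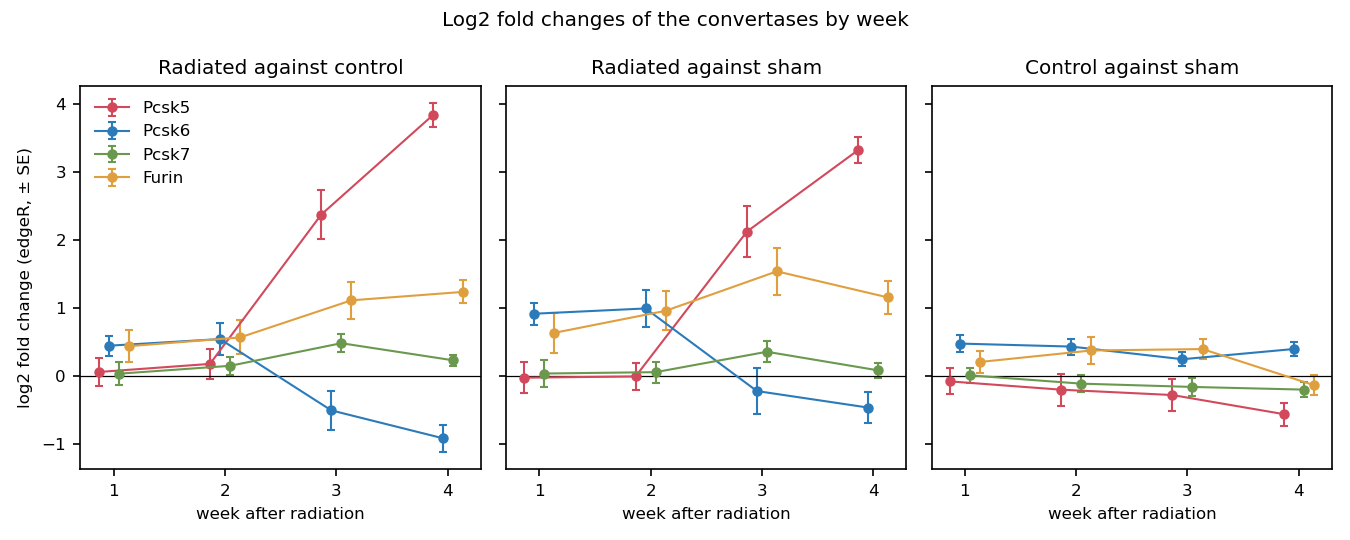
Log2 fold changes of the 4 genes from edgeR (y axis, ± SE) by week (x axis) for radiated against control, radiated against sham and control against sham skin. The lines join values from different mice. Pcsk5 stands near 0 in weeks 1 and 2 and at 3.83 against control skin in week 4, Pcsk6 passes from 0.45 to -0.91, and the control against sham values lie between -0.56 and 0.48.

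Sham skin gave a further comparison, which shares the radiated samples with the comparison above and uses the same 3 sham samples in every week. In sham skin 4 hair follicle markers summed to 1990 to 31735 CPM, with a median of 26146 CPM. Some samples of other groups reached into that range: the sums ran from 17.8 to 6277 CPM in control skin of week 1, 8.03 to 2364 CPM in control skin of week 2 and 18.1 to 5467 CPM in radiated skin of week 4. They ran from 16.8 to 108 CPM in radiated skin of week 1 and from 20.5 to 31.9 CPM in control skin of week 4. Their part in the values against sham skin was not tested. Against sham skin the log2 fold change of Pcsk5 was -0.02, -0.00, 2.12 and 3.32 in weeks 1 to 4. In edgeR, Furin rose by 1.54 in week 3 (SE 0.35, adjusted p 0.0206) and by 1.16 in week 4 (SE 0.24, adjusted p 0.00838), and did not pass at 0.64 in week 1 or 0.96 in week 2. Without radiated sample 1 the value of week 2 passed (1.13). Leaving out sham sample 1, 2 or 3 ended the call of week 3 (1.44, 1.75 and 1.51).

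Pcsk6 rose against sham skin in week 1, by 0.92 on the log2 scale (SE 0.16, adjusted p 0.0255 in edgeR). All 4 radiated samples (72.5 to 97.8 CPM) lay above all 3 sham samples (45.4 to 48.0 CPM), as was so for 6.7% of 19813 genes. That call was lost without radiated samples 3 (0.91) or 4 (0.87) or without sham samples 1 (0.93), 2 (0.90) or 3 (0.93). In week 2 the value was 0.99 and did not pass (adjusted p 0.0663 in edgeR), but did so without radiated sample 1 (1.13). In weeks 3 and 4 it was -0.22 and -0.46, which did not pass, and Pcsk7 passed in no week. Thus 1 of the 3 tested convertases passed in weeks 1, 3 and 4 and 0 in week 2, where 1.75%, 18.2%, 26.7% and 5.06% of all genes passed in weeks 1, 3, 4 and 2.

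Control skin of the radiated mice was itself set against the same sham samples. Pcsk6, Pcsk7 and Furin passed in no week, where 4.92%, 2.44%, 11.4% and 3.65% of all genes did in weeks 1 to 4. Each of the 16 control samples had more Pcsk6 than any sham sample (53.7 to 73.0 against 45.4 to 48.0 CPM), as was so for 0.898% of 19813 genes. This ordering was picked out after the values were seen. The tests by week did not pass, with log2 fold changes of 0.48, 0.43, 0.25 and 0.40 (adjusted p 0.0637, 0.0864, 0.138 and 0.0685 in edgeR, unadjusted p 0.00481, 0.00541, 0.0359 and 0.00386). Without control sample 1 the value passed in week 1 (0.56) and week 2 (0.47). The week 4 call of Pcsk6 depended on the reference: radiated skin passed against control skin and not against sham skin. Its levels in that week were 22.3 to 44.2 CPM in radiated and 55.1 to 68.3 CPM in control samples. How many of all genes had their samples in such an order was not counted. The log2 fold change of Pcsk5 in control against sham skin was -0.08, -0.20, -0.28 and -0.56 in weeks 1 to 4.

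To compare levels between the 4 genes, CPM was divided by the merged exon length of each gene in kb. In sham skin Furin had 11.7 ± 2.55, Pcsk6 9.01 ± 0.24, Pcsk7 7.27 ± 0.36 and Pcsk5 1.54 ± 0.21 CPM per kb (SD, n = 3). Pcsk5 was thus the lowest of the 4 in skin without radiation and made up 5.21% ± 0.33 of their summed level. Its share was 3.52% ± 0.73 in week 4 control skin. It was 11.6% ± 4.70 in week 3 and 28.2% ± 6.98 in week 4 after radiation (SD, n = 4 each). In that last group Pcsk5, at 15.0 ± 2.68 CPM per kb, stood second to Furin at 25.3 ± 6.78.

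The share of Pcsk6 was 39.6% ± 1.94 in control skin and 11.7% ± 3.17 in radiated skin at week 4 (SD, n = 4 each), where it was the lowest of the 4. Furin held 35.7% ± 2.26 in control skin and 46.2% ± 7.06 in radiated skin of that week. The summed level of the 4 genes was 30.2 ± 1.52 CPM per kb in control skin and 54.1 ± 5.98 in radiated skin of week 4, and 29.5 ± 2.85 in sham skin (n = 3). These shares include Pcsk5 and are a description. They also depend on the length used. Merged exons and longest transcript are 14447 and 7188 bases for Pcsk5, 9178 and 5736 for Furin, and 5190 and 4405 for Pcsk6. With the longest transcript of each gene, Pcsk5 held 5.08% in control and 34.6% in radiated skin of week 4. The share of Pcsk6 in radiated skin was then 8.46%. With that length Furin (41.1%) rather than Pcsk6 (33.5%) held the largest share in control skin of week 4.

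**Figure D3:**
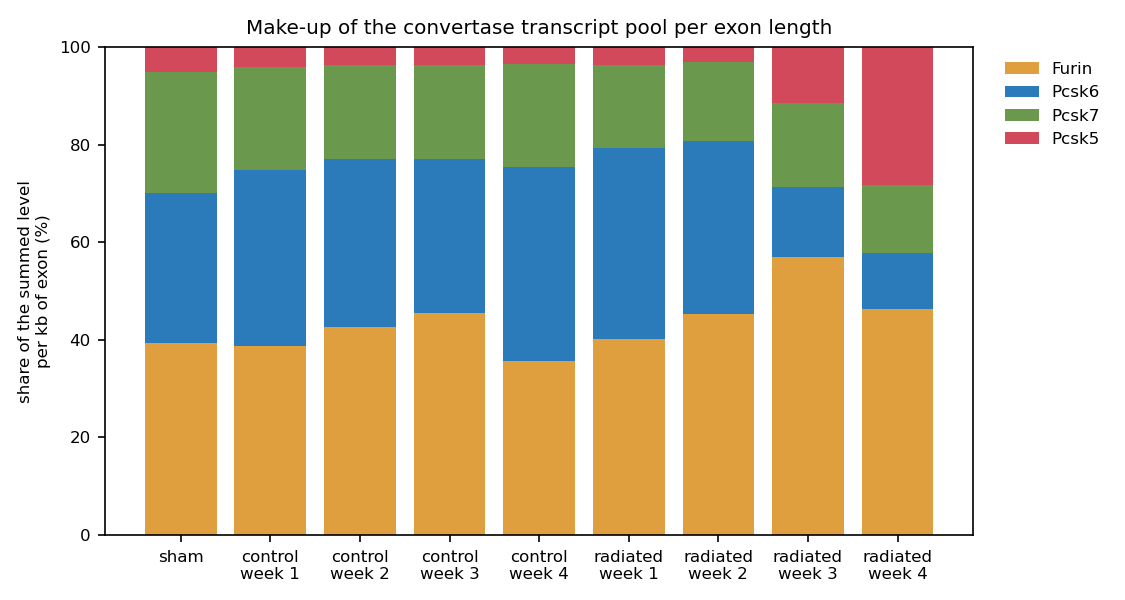
Mean share of each convertase in the summed level of the 4 genes per kb of exon (y axis, %) in each of the 9 groups (sham n = 3, others n = 4). Pcsk5 takes 3.52% in control and 28.2% in radiated skin of week 4, and Pcsk6 takes 39.6% and 11.7%.

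Further genes of the family were looked at next: Pcsk1, Pcsk2, Pcsk4, Mbtps1 and the inhibitor gene Pcsk1n. None of those expressed enough to be tested passed against control skin in weeks 1 to 3 in edgeR. In week 4 Mbtps1 passed, beside 48.4% of all genes.

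Pcsk1, which encodes a convertase of hormone-secreting cells, stood at 0.0529, 0.265, 0 and 0 CPM in control samples and at 2.52, 1.40, 1.72 and 2.63 CPM in radiated samples of week 4. Levels were low throughout, and the gene was expressed enough to be tested only through the radiated samples. Its fold change is therefore drawn in a figure but not given in the text, and Pcsk1 is not counted as passing. Mbtps1, the site-1 protease that activates sterol-regulatory factors, fell by 0.32 (SE 0.09, adjusted p 0.0127 in edgeR), with 83.7 to 90.0 CPM in control and 62.6 to 76.6 CPM in radiated skin of week 4. Pcsk2 (0.37) and Pcsk4 (-0.55) did not pass, and Pcsk1n was too low to be tested.

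Genes whose precursor proteins are known substrates of these convertases were listed in 7 groups of 65 genes in all. In weeks 1 and 2, 0 of the 65 passed against control skin in edgeR. In week 3, 17 were higher and 12 lower, and in week 4, 27 were higher, 16 lower and 22 did not pass. Of all genes, 13.6% were higher and 13.6% lower in week 3, and 24.2% and 24.2% in week 4. The share passing in week 4 was 66.2%, beside 48.4% of all genes, and the median log2 fold change was 0.35, beside 0.02 over all genes tested. With the replicate block 10 of the 65 passed in week 2, 9 of them higher, beside 3.7% of all genes and 2.85% higher. The Wald test of DESeq2 passed 9, beside 4.23% of all genes. With total-count scaling, which moved the median of all genes in week 3 from 0.08 to 0.32, the split of week 3 was 22 higher and 8 lower, beside 23.0% and 7.19% of all genes. A transcript level says nothing of how much precursor was cut.

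Proteases that are themselves made as inactive zymogens were the longest list. Of 18, 12 were higher and 2 lower in week 4, beside 24.2% of all genes higher and 24.2% lower. The list median of the log2 fold change was 1.16. Adamts4, an aggrecan-cutting enzyme, stood at 120.1 to 229.9 CPM in radiated and 3.03 to 6.77 CPM in control skin and rose by 4.99 on the log2 scale (SE 0.29, adjusted p 3e-06 in edgeR). Adam12, a membrane metalloproteinase of mesenchymal cells, rose by 4.30, and Mmp11, the stromelysin known as a furin substrate, by 2.97. Mmp14, the membrane-type collagenase, rose by 2.54, from 174 ± 9.30 CPM in control skin to 1003 ± 199.7 CPM after radiation (SD, n = 4 each).

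Matrix precursors gave 3 of 3 higher, beside 24.2% of all genes. Col5a1, a chain of the collagen that starts fibrils, rose by 3.22 on the log2 scale, Fbn2, a fibrillin of microfibrils, by 2.80 and Fbn1, the main fibrillin of adult skin, by 1.68. The mean level of Fbn1 was 334 ± 92.4 CPM in control and 1063 ± 117 CPM in radiated skin at week 4 (SD, n = 4 each).

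Growth factor precursors were split, as were all genes (24.2% higher and 24.2% lower). Of 17, 5 were higher, 5 lower and 7 did not pass. Inhba, the activin A subunit, rose by 4.94 (SE 0.32, adjusted p 4.2e-06 in edgeR), from 18.7 ± 7.63 to 570.0 ± 163 CPM (SD, n = 4 each). Bmp4, a bone morphogenetic protein of dermal papilla and dermis, fell by 2.63. Mstn, the muscle growth inhibitor myostatin, fell by 5.07, and 3 of the 4 skeletal muscle markers were lower in the same comparison (397 to 1107 CPM summed in radiated and 749 to 11125 CPM in control skin, none at 0). Their part in the Mstn value was not tested. Without control sample 4 the Mstn value was -4.26.

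Among receptor precursors 2 of 9 were higher and 4 lower, beside 24.2% of all genes higher and 24.2% lower. Lrp1, the endocytic receptor for many proteases and inhibitors, rose by 2.01 on the log2 scale, and Sorl1, a sorting receptor, by 0.84. Sort1, sortilin, fell by 1.13 and Notch1 by 0.93. Of the 6 integrin alpha chains that convertases cut into 2 parts, Itga5 (fibronectin receptor, 2.57) and Itga7 (laminin receptor, 1.19) rose, Itga8 fell by 1.57 and 3 did not pass. Of the 4 alpha chains that are not cut in this way, Itga11 (1.14) and Itga1 (1.05), both collagen receptors, rose and 2 did not pass. The Itga11 call was lost with the replicate block (adjusted p 0.0736 in edgeR), and without radiated sample 1 its value was 0.68. Higher genes were found among cut and uncut chains, as among all genes (24.2%), and the difference between these short lists was not tested.

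Adhesion and barrier precursors had 2 of 8 higher and 4 lower, beside 24.2% of all genes higher and 24.2% lower. Dsc2, a desmosomal cadherin, rose by 2.65, and 3 other epithelial cadherins fell: Dsc3 by 1.15, Dsg2 by 1.15 and Cdh1, E-cadherin, by 0.84. In the lipase group 1 of 4 passed, Angptl4, an inhibitor of lipoprotein lipase that convertases cut into 2 parts, which rose by 1.89, or by 2.59 without control sample 4. All of these named genes kept their direction in edgeR under the other scalings, without the filter on low counts and with any single sample left out.

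**Figure D4:**
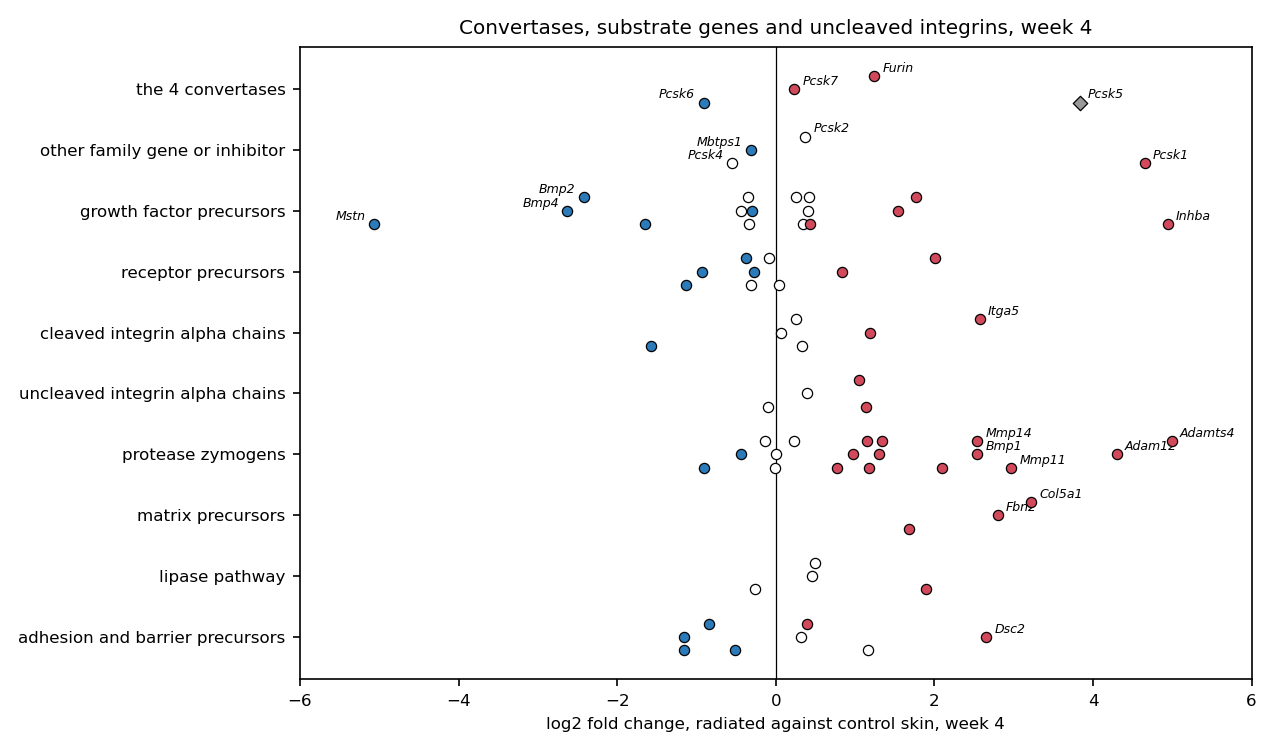
Log2 fold change in radiated against control skin of week 4 (x axis) for the convertases, other family genes, substrate precursors and uncleaved integrin chains, by group (y axis), without the genes not reported here. Red points are higher and blue points lower at an adjusted p under 0.05 in edgeR, open points did not pass, and the grey diamond is Pcsk5, which was not tested. Pcsk1 is drawn at its fitted value, which rests on control levels at or near 0, and is not counted as passing in the text. Protease zymogens and matrix precursors lie mostly to the right (12 of 18 and 3 of 3 higher, beside 24.2% of all genes). Growth factor precursors spread to both sides.

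Genes with the pattern most like that of each convertase were found by Pearson's r of log2 CPM over the 35 samples among the 12532 genes that averaged 5 CPM or more. For Pcsk5 these were Chsy1 (r 0.96), which builds chondroitin sulphate, the fibril-associated collagen gene Col12a1 (0.96), Fmnl3 (0.95), the collagenase gene Mmp13 (0.95), Ddah1 (0.95), the fibrillar collagen gene Col24a1 (0.95), the matricellular gene Ccn4 (0.95) and Spp1 (0.94), which encodes osteopontin. All 8 share libraries and groups with Pcsk5, so much of r is the step to weeks 3 and 4. With the deviations from the group means instead, a measure chosen after seeing the data, r was 0.44 to 0.66. Col12a1 stood at 83.1 ± 7.89 CPM in control and 2133 ± 837 CPM in radiated skin of week 4, and Chsy1 at 15.0 ± 3.14 and 87.7 ± 25.3 CPM (SD, n = 4 each). Mmp13, Spp1 and Col24a1 had group means under 5 CPM outside radiated skin of weeks 3 and 4 (at most 0.616, 2.17 and 2.79 CPM). Ccn4 had 6.30 CPM in sham skin and 2.63 to 4.67 CPM in the other groups outside them. These genes met the minimum of 5 CPM only through the groups where Pcsk5 is high, so the minimum itself favours such a pattern.

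**Figure D5:**
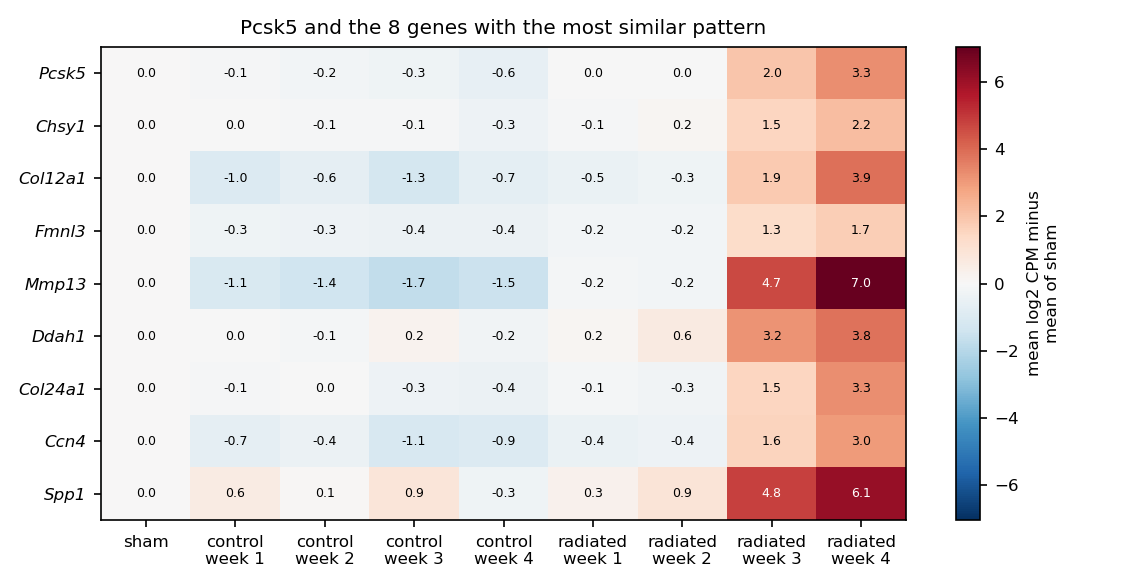
Pcsk5 and the 8 genes with the most similar pattern over 35 samples: mean log2 CPM of each of the 9 groups minus the mean of sham skin (colour and printed value). The groups of control skin and of radiated skin of weeks 1 and 2 lie between -1.74 and 0.91, and radiated skin of weeks 3 and 4 lies above 0 for all 9 genes, up to 7.05 for Mmp13.

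The other convertases had other neighbours. Pcsk6 was most like the cornified envelope gene Lce1l (r 0.91), the chitinase gene Chit1 (0.91) and 2310050C09Rik (0.90). Furin was most like Med15 (0.94), Atxn2l (0.93) and Ppard (0.93), which encodes a nuclear receptor for fatty acids. Pcsk7 had no neighbour as close, with A830018L16Rik (0.76), Sdhaf2 (0.75) and Olfr846 (0.74) first. Between the convertases themselves, r with Pcsk5 was 0.65 for Furin, 0.35 for Pcsk7 and -0.71 for Pcsk6, over the same 35 samples. These values describe the samples and were not tested.

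Markers of several cell types differed along with Pcsk5 and Furin, in comparisons where 24.2% of all genes were higher in week 4 and 13.6% in week 3. In week 4, 4 of 5 fibroblast markers were higher and 0 lower in radiated skin in edgeR (Pdgfra by 2.06, Lum by 2.39, Col1a1 by 4.10 and Dcn by 0.58 on the log2 scale, but not Dpt), with a summed level of 13160 to 20460 CPM against 1251 to 2301 CPM in control skin. All 4 macrophage markers (651 to 936 against 121 to 187 CPM), 3 of 3 endothelial (289.6 to 372 against 112 to 196 CPM), 3 of 3 neutrophil (111 to 311 against 7.78 to 11.5 CPM) and 3 of 3 mast cell markers (52.1 to 75.6 against 18.5 to 25.7 CPM) were also higher. All 4 hair follicle markers were higher, with Krt71 by 8.58 and Krt25 by 8.24 on the log2 scale, though their summed level overlapped (18.1 to 5467 against 20.5 to 31.9 CPM). The median of the radiated sums was 152 CPM, far below the highest sample, and fold changes without that sample were not computed. Of 3 melanocyte markers 2 were higher (23.1 to 38.3 against 13.4 to 15.8 CPM). In week 3, 3 of 3 neutrophil (63.2 to 488 against 6.55 to 10.5 CPM) and 3 of 3 mast cell markers (23.0 to 51.6 against 11.5 to 20.3 CPM) were higher. In the same week 3 of 4 macrophage markers were higher (529 to 1409 against 207 to 487 CPM), while of the fibroblast markers 1 was higher and 1 lower (4719 to 10124 against 1217 to 5558 CPM). Of the neutrophil markers, S100a8 and S100a9 were too low to be tested in week 1, as was S100a8 in week 2. Their calls in weeks 3 and 4 may therefore rest on passing the filter through the radiated samples. Cxcr2 was tested in every week. The lists held no marker at 0 in any group. The part of these cell types in the levels of Pcsk5 and Furin was not tested.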

How the data were processed

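The deposited table holds estimated counts, 1 value per gene and sample, which the authors made with Trim Galore 0.6.7 and kallisto 0.46.2 on mm10, per the submitters' processing notes. Skin was kept in RNAlater and extracted with RNeasy, per the labels' protocols, which name DESeq2 for the authors' own analysis. The transcriptome release, strand setting and transcript-to-gene step are not given in the sources used here. Estimated counts were rounded to whole numbers. Totals of 17362725 to 28487795 per sample set the counting error, and intervals from counts cover that error only.

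Genes were filtered with filterByExpr, scaled with TMM and tested with edgeR 4.0.16 (R 4.3.3) by its quasi-likelihood F test, with Benjamini-Hochberg adjustment over all genes tested and a threshold of 0.05. Each comparison was fitted on its own groups. The change over weeks was fitted on 32 radiated and control libraries with 3 interaction terms. A standard error is the log2 fold change divided by the square root of F. Levels came from 19813 genes, with a prior count of 2 on the log2 scale, and lengths from GENCODE on GRCm38. Promoters came from RefSeq on GRCm38.p6. The scripts were tested on simulated data. Alternatives were DESeq2 1.42.0 (Wald test and size factors), total-count scaling, no filter, a replicate block, 1 fit of all 35 samples, the longest transcript and each sample left out. Python 3.11.15, pandas 2.3.3, numpy 2.4.6 and matplotlib 3.10.9 were used for summaries and plots.

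The genes, lists and tests were chosen with earlier results of these data known. Named were the convertases and their family whatever their values, up to 4 genes of each substrate list that passed in week 4 with the largest changes, and the 8 genes most like Pcsk5 and 3 most like each other convertase. Some genes that this rule names are not reported here, though counts over the substrate lists include every listed gene. The 35 samples came from 19 mice, so radiated and control samples with the same week and number were taken as 1 mouse. The mean correlation of their deviations over 19813 genes was 0.0706, 0.173, 0.0525 and -0.0198 in weeks 1 to 4, against -0.0237, -0.0568, -0.0168 and 0.00738 for other numbers. Of 595 pairs of samples, 0 were identical. Where samples are not separate animals, p-values measure only the spread between these samples.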

Additional observations from a re-analysis of the deposited data

Results flagged for a closer look

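Pcsk7 stood at 40.4 CPM in radiated sample 2 of week 4, far from the other 3 samples of its group for the size of the group's range. This was the only one flagged of 32 groups checked, and chance flags about 1 in 20.

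For Pcsk6, the radiated against control difference was not the same in all weeks (adjusted p 0.00717 in edgeR, and 0.00993 with the replicate block). The log2 fold change went from 0.45 in week 1, which did not pass, to -0.91 in week 4. Levels were higher in 4 of 4 pairs in week 1 and lower in 4 of 4 pairs in week 4. Such pairs were not counted over all genes.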

How the results depend on the processing

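Of 786 recomputed values for the convertases and list counts, 729 counted as unchanged. For tested values this meant the same side of the threshold and, for fold changes, the same direction. For Pcsk5 and the shares it meant a shift smaller than the SD between samples, and for list counts a similar number. The cause of the other changes was not tested. With the replicate block Pcsk7 missed the threshold at 0.49 in week 3 and 0.24 in week 4 against control skin, and 10 substrate genes passed in week 2. Sham and radiated mice share only a number, and there the block gave 0.86 for Pcsk6 in week 1, past the threshold no longer, and -0.026 for Pcsk7 in control skin of week 1. Among the convertases and named genes the block changed no other call but that of Itga11. It passed 26 substrate genes in week 3 and 42 in week 4, and over all alternatives these counts ran from 24 to 31 and from 37 (the fit of all 35 samples) to 48. DESeq2 passed 4 substrate genes in week 1 and 9 in week 2, and against sham skin passed Pcsk6 (1.01) and Furin (0.98) in radiated skin of week 2 and Pcsk6 in control skin of weeks 1 (0.49), 2 (0.47) and 4 (0.41). The fit of all 35 samples passed 6 substrate genes in week 2, passed Pcsk6 (0.99) and Furin (0.96) against sham in week 2, and lost Pcsk7 in week 4 (0.23), as did the fit with no filter (0.22). Total-count scaling turned Pcsk7 to -0.073 in radiated skin of week 2 and -0.14 in control skin of week 1 against sham. With the longest transcript, shares in week 4 were 5.08% (Pcsk5), 33.5% (Pcsk6) and 41.1% (Furin) in control and 8.46% (Pcsk6) in radiated skin. With each sample left out, substrate counts ran from 0 to 2 in week 1 and from 0 to 5 in week 2. Pcsk7 against control skin ran from -0.13 to 0.11 in week 1, 0.40 to 0.52 in week 3 and 0.21 to 0.27 in week 4, and its adjusted p for the change over weeks in edgeR from 0.0401 (without week 1 replicate 2) to 0.46. Against sham, Pcsk6 ran from 0.87 to 1.00, 0.77 to 1.13 and -0.39 to 0.025 in radiated skin of weeks 1 to 3, and from 0.42 to 0.56 and 0.37 to 0.48 in control skin of weeks 1 and 2. Furin ran from 0.80 to 1.13 and 1.21 to 1.75 in radiated skin of weeks 2 and 3 and from -0.27 to 0.041 in control skin of week 4. Pcsk7 ran from -0.12 to 0.12 in radiated and -0.029 to 0.046 in control skin of week 1.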
